A study of Mus musculus with 4 samples.

Results

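The transcriptional arm of the Hippo pathway was followed through 10 genes, chosen by name: the coactivators Yap1 and Wwtr1 (which encodes TAZ), the DNA-binding partners Tead1 to Tead4, and 4 genes known as their targets, Ctgf, Cyr61, Ankrd1 and Lats2. All 10 were found among the 23420 gene rows of the count table, where Ctgf and Cyr61 carry their older names (now Ccn2 and Ccn1). RNA sequencing covered 4 libraries, 2 biological replicates from each of 2 lines of mouse keratinocytes, called MK1 and MK2. The labels name no treatment or allele, and give nothing on strain, age or passage. Each line stands for itself, so p-values measure the spread between cultures of these lines. The comparison was MK2 against MK1, and a positive log2 change means a higher level in MK2.

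YAP and TAZ carry no DNA-binding domain and act by binding TEAD factors at enhancers and promoters. The kinases of the Hippo pathway, with LATS1 and LATS2 as the last step, phosphorylate YAP and TAZ, which keeps them out of the nucleus. Crowding, cell contact and low tension favour that state, while spreading and matrix stiffness favour nuclear YAP and TAZ. In the epidermis YAP is known for its nuclear presence in basal cells, and it promotes their proliferation. RNA levels report neither phosphorylation nor the location of YAP and TAZ in the cell.

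The binding preference of TEAD factors has the core GGAATG, or CATTCC on the opposite strand, and the 250 bases before the start site were searched for it in RefSeq promoters (GRCm38.p6, the same assembly as mm10). A promoter was at hand for 7 of the 10 genes, but not for Tead1, Tead4 or Ctgf. Of the 7 genes, 5 held the core: Yap1, Wwtr1, Tead3, Cyr61 and Ankrd1. Over all 27025 genes with a promoter, 14.4% held it. Some genes have more than 1 promoter window, which can overlap. By window, 7 of the 11 of these genes held the core, against 12.6% of all 32851 windows. The AP-1 motif TGANTCA was found in 0 of the 7 genes and in 7.82% of all genes. No match of 1 motif overlapped another. Below are 4 promoters, 5′ to 3′ on the gene's strand, each ending at the base before the gene's span in the count table, with the TEAD core in capitals. Ankrd1 (chr19:36119845-36120094) and Cyr61 (chr3:145649986-145650235) are shown as targets, and Wwtr1 (chr3:57575911-57576160) and Yap1 (chr9:8004597-8004846) as the coactivators; all 4 lie on the minus strand.
Ankrd1: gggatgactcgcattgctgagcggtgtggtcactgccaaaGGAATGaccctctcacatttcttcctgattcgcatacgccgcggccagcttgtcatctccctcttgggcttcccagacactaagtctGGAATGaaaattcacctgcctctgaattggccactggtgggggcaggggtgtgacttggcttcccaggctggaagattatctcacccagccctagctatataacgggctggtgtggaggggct
Cyr61: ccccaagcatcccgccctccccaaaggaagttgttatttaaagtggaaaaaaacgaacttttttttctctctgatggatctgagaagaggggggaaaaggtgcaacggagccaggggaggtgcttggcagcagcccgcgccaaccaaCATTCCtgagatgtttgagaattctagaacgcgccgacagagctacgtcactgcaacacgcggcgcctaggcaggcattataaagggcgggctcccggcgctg
Wwtr1: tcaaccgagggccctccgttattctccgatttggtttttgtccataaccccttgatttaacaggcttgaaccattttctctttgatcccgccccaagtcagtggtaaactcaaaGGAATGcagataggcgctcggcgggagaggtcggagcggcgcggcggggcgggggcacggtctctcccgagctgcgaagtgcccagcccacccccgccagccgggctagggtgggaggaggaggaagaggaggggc
Yap1: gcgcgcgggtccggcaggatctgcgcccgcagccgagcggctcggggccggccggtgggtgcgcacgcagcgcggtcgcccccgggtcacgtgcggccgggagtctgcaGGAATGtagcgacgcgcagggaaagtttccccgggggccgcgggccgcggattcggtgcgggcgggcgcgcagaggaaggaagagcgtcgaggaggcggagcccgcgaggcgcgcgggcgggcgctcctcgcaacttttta
The Ankrd1 promoter held 2 cores, starting 210 and 123 bases before the start site, and the Cyr61, Wwtr1 and Yap1 promoters held 1 each, at 103, 136 and 141 bases. A match is a description of the sequence and says nothing of binding in these cells.

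Libraries held 25237391 to 30261111 counts. Levels of single genes are given as CPM (read counts per 1000000, on TMM-scaled library sizes), and levels of different genes are compared as TPM, which also divides by gene length. The lines matched their label: all 7 basal keratinocyte markers passed 1 CPM in MK1 and 6 of 7 in MK2. The exception was Krt15, on which the MK2 cultures differed widely, with 27.9 CPM in replicate 1 and 0.247 CPM in replicate 2. Summed levels of the 7 were 18021 to 21714 CPM, with Krt14 as the most abundant. Markers of 3 other cell types stayed below 7 CPM in sum in every library: 8 fibroblast markers (1.03 to 3.95 CPM, Dcn and Lum at 0 counts), 5 smooth-muscle markers (1.76 to 3.61 CPM, Cnn1 at 0) and 6 melanocyte markers (3.50 to 6.05 CPM, Dct at 0). Of 5 endothelial markers, summing to 14.9 to 17.8 CPM in MK1 and 25.4 to 27.4 CPM in MK2, Kdr made up most, with Cdh5 and Emcn at 0. The 6 leukocyte markers summed to 28.5 and 28.3 CPM in MK1 libraries but to 0.238 and 0.0705 CPM in those of MK2, led by Cd74. Their part in the differences below was not tested, and in bulk RNA fewer cells of a type and less RNA per cell cannot be told apart.

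In MK2 2 of the 4 TEAD genes were higher than in MK1 and the TAZ transcript was lower, while Yap1 was not called and none of the 4 targets was called higher. Tead2 rose 3.75-fold and Tead4 1.93-fold, whereas Wwtr1, Ankrd1 and Lats2 fell. Of the 10 genes, all of which were tested, 2 were called higher and 3 lower (quasi-likelihood test of edgeR over 12479 genes, Benjamini-Hochberg adjusted p under 0.05). Among all genes tested, 54.6% were called, 25.9% as higher and 28.6% as lower, so that 5 calls in 10 genes were close to the background. Without MK1 replicate 1 the calls fell to 2 higher and 1 lower of the 10 genes and 3716 of all genes, and without MK1 replicate 2 4369 of all genes were called, against 6810. The median log2 change of the 10 genes was -0.18, and that of all genes tested was -0.01. Beyond 2-fold, edgeR's glmTreat called 1 gene higher (Tead2) and 1 lower (Ankrd1), beside 13.3% of all genes (3.25% higher, 10.1% lower). Ankrd1 entered the test through MK1, since only 1 of the 2 MK2 libraries reached the level needed. Its call beyond 2-fold was not kept in DESeq2 or with the replicate number as a block. The CPM ranges of the lines did not overlap for 6 of the 10 genes, against 80.5% of all genes tested.

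**Figure D1:**
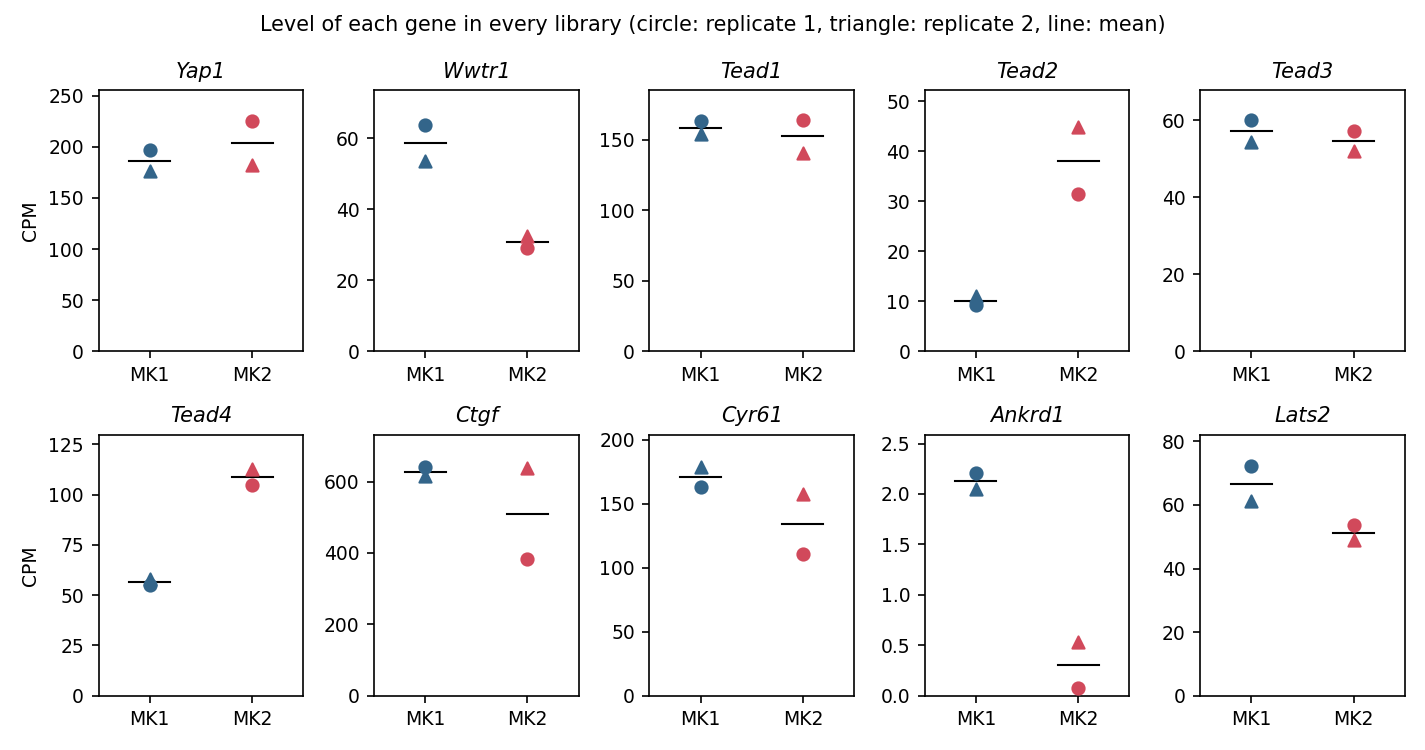
CPM (linear axis from 0, with its own scale for each gene) of the 10 genes in MK1 and MK2, with replicate 1 as a circle, replicate 2 as a triangle and the mean as a line. Tead2 and Tead4 lie higher in both MK2 cultures, Wwtr1, Ankrd1, Lats2 and Cyr61 lower, and the MK2 cultures stand far apart for Ctgf.

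Yap1 (chromosome 9, 7932001 to 8004596, minus strand, mm10), the main YAP-family coactivator of epidermis, had 197 and 176 CPM in MK1 and, in MK2, 225 and 183 CPM. The lines overlapped, and MK2 replicate 2 lay between the MK1 replicates. Its log2 change was 0.13 ± 0.13 (SE), and it was not called (edgeR adjusted p = 0.449). Without MK2 replicate 1 the sign turned (log2 change -0.03).

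Wwtr1 (chromosome 3, 57455644 to 57575910, minus strand), which encodes the YAP paralogue TAZ, stood at 63.8 and 53.4 CPM in MK1 and at 29.0 and 32.5 CPM in MK2. Both MK2 cultures were below both MK1 cultures. The fall was 1.91-fold (log2 change -0.93 ± 0.13 (SE), edgeR adjusted p = 0.00144), and it was not called beyond 2-fold. Yap1 exceeded Wwtr1 in every library when levels were compared per length. Their TPM ratio was 3.54 and 3.78 in MK1 and 8.93 and 6.44 in MK2. Wwtr1 thus made up 21.5 ± 0.781% of the summed Yap1 and Wwtr1 TPM in MK1, against 11.8 ± 2.38% for MK2 (here and below, ± on levels and shares is the SD over n = 2 cultures). The sum itself overlapped between the lines, at 119 ± 12.5 and 111 ± 14.9 TPM.

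The 4 TEAD genes encode transcription factors with a shared DNA-binding domain, and they did not move alike. Tead4 (chromosome 6, 128227143 to 128300813, minus strand), best known for its part in the trophectoderm of the early embryo, stood at 54.9 and 58.1 CPM in MK1 and at 105 and 113 CPM in MK2. The lines were well apart, and cultures of 1 line close together. Its rise was 1.93-fold (log2 change 0.95 ± 0.11 (SE), edgeR adjusted p = 5.70e-04).

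Tead2 (chromosome 7, 45215753 to 45233619, plus strand), a family member prominent in early embryonic and neural tissue, stood at 9.34 and 10.99 CPM in MK1 and at 31.4 and 44.8 CPM in MK2. Every MK2 value was above every MK1 value, and the MK2 cultures differed from each other by 1.43-fold. Its rise was 3.75-fold (log2 change 1.91 ± 0.20 (SE), edgeR adjusted p = 4.63e-04), which placed it at percentile 97.5 of the log2 changes of all genes tested. It was also called beyond 2-fold (glmTreat adjusted p = 0.00514), but not when MK1 replicate 1 was left out (adjusted p = 0.0721).

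Tead1 (chromosome 7, 112679320 to 112906805, plus strand), a broadly expressed family member, stood at 163 and 154 CPM in MK1 and at 164 and 141 CPM in MK2. Tead3 (chromosome 17, 28331673 to 28350805, minus strand), also known from placenta, stood at 60.0 and 54.3 CPM in MK1 and at 57.0 and 52.1 CPM in MK2. The lines overlapped for both genes. Their log2 changes were -0.06 ± 0.12 and -0.07 ± 0.11 (SE), neither was called (edgeR adjusted p = 0.695 and 0.638), and signs turned without 1 library (0.05 for Tead1 without MK2 replicate 2, 0.0036 for Tead3 without MK1 replicate 1). Whether the TEAD genes differed from each other in their change was not tested.

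Per length, the TEAD genes together summed to 124 and 119 TPM in the MK1 replicates and to 170 and 177 TPM in the MK2 replicates. In MK1, Tead3 (32.7 ± 1.91% of the sum), Tead4 (31.6 ± 1.66%) and Tead1 (27.4 ± 0.798%) were near each other, and Tead2 held 8.28 ± 1.05%. In MK2, Tead4 led with 40.7 ± 0.504%, before Tead3 (21.0 ± 2.201%), Tead2 (20.7 ± 4.30%) and Tead1 (17.7 ± 2.60%). Tead3 exceeded Tead1 within both MK2 libraries (22.5 against 19.5% in replicate 1, 19.4 against 15.8% in replicate 2). Tead2 could not be placed, being below both in replicate 1 (17.6%) and above both in replicate 2 (23.7%). The shares of each TEAD gene did not overlap between the lines, but an exact two-sided permutation test of 2 against 2 cultures cannot go below p = 0.333. Because the shares are parts of 1 sum, larger shares of Tead2 and Tead4 go with smaller ones of Tead1 and Tead3. The CPM of Tead1 and of Tead3 overlapped between the lines. The shares depend on the deposited gene lengths: by read counts alone Tead1, the longest at 9962 bases, held 56.2% in MK1 and 43.1% in MK2. Tead3 and Tead4 transcripts share an exact stretch of 59 bases in the GENCODE transcripts, the longest among the TEAD genes. Whether any read fell wholly within it was not tested, and read length is not given in the sources used here.

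**Figure D2:**
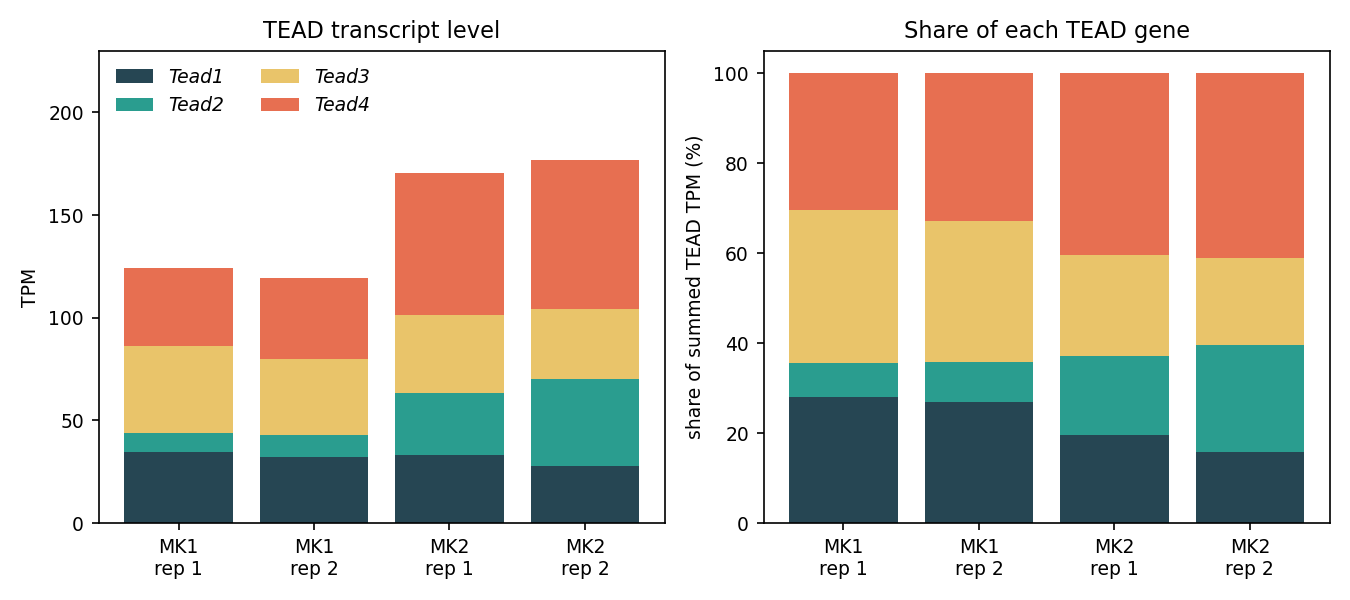
TPM of Tead1 to Tead4 stacked for each library (left) and the share of each gene in their summed TPM in percent (right), both on axes from 0. The MK2 bars reach 170 and 177 TPM against 124 and 119 TPM in MK1, and the Tead2 and Tead4 segments are wider in MK2.

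Of the 4 target genes 2 fell in MK2, Ankrd1 and Lats2, and 2 were not called, beside 28.6% called lower among all genes tested. Ctgf (chromosome 10, 24595442 to 24598682, plus strand), a secreted matricellular protein of the CCN family and a standard readout of YAP and TEAD, stood at 640 and 616 CPM in MK1. In MK2 it stood at 382 CPM in replicate 1 and 637 CPM in replicate 2. Replicate 2 lay within the MK1 range and replicate 1 far below it. The log2 change was -0.30 ± 0.22 (SE), not called (edgeR adjusted p = 0.286). The outcome rested on which MK2 culture was used: without MK2 replicate 2 Ctgf was called lower (log2 change -0.72, adjusted p = 0.00124), and without MK2 replicate 1 the log2 change was 0.03 (adjusted p = 0.858).

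Cyr61 (chromosome 3, 145646971 to 145649985, minus strand), the CCN-family relative of Ctgf, stood at 163 and 179 CPM in MK1 and at 110 and 158 CPM in MK2. Both MK2 values were below the MK1 values, replicate 2 only just. The log2 change was -0.35 ± 0.17 (SE), not called (edgeR adjusted p = 0.130). Without MK2 replicate 2 it was called lower (log2 change -0.63, adjusted p = 0.00355).

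Ankrd1 (chromosome 19, 36111965 to 36119844, minus strand), an ankyrin-repeat protein best known from heart muscle, was rare in both lines. It had 67 and 55 counts in MK1 (2.204 and 2.048 CPM) and 2 and 15 counts in MK2 (0.0795 and 0.529 CPM). The exact 95% Poisson intervals were 1.71 to 2.80 and 1.54 to 2.67 CPM in MK1 and 0.00962 to 0.287 and 0.296 to 0.873 CPM in MK2, and cover counting error only. The intervals of the MK1 libraries did not meet those of the MK2 libraries, and the MK2 intervals did not meet each other. The fall was 6.69-fold (log2 change -2.74 ± 0.56 (SE), edgeR adjusted p = 0.00650; beyond 2-fold adjusted p = 0.0395). Only 1 of the 2 MK2 libraries reached the minimum of the count filter, so that Ankrd1 entered the test through MK1. The call ended without MK1 replicate 1 (adjusted p = 0.0598), and the log2 change ran from -4.66 without MK2 replicate 2 to -1.99 without MK2 replicate 1. The call beyond 2-fold ended without MK1 replicate 1, MK1 replicate 2 or MK2 replicate 1 (adjusted p = 0.239, 0.176 and 0.0508) and in DESeq2 (adjusted p = 0.255).

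Lats2 (chromosome 14, 57689662 to 57746123, minus strand), a kinase that inhibits YAP and TAZ and is itself induced by them, stood at 72.1 and 61.3 CPM in MK1 and at 53.7 and 48.9 CPM in MK2. The MK2 cultures lay below the MK1 cultures. The fall was 1.30-fold (log2 change -0.38 ± 0.12 (SE), edgeR adjusted p = 0.0380). Leaving out MK1 replicate 1, MK1 replicate 2 or MK2 replicate 2 ended the call, with adjusted p of 0.236, 0.0531 and 0.104.

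Ctgf, Cyr61 and Ankrd1 were all lower in MK2 replicate 1 than in MK2 replicate 2. The CPM ratio of replicate 2 to replicate 1 was 1.67 for Ctgf, 1.43 for Cyr61 and 6.66 for Ankrd1, at percentiles 95.8, 92 and 99.7 of all genes tested. The Ankrd1 ratio came from 2 counts in replicate 1 and 15 in replicate 2. Lats2 did not share that difference, with a ratio of 0.910. Nor was it limited to target genes: Tead2 had a ratio of 1.43, at percentile 91.9. In MK1 the ratios were 0.962, 1.097, 0.929 and 0.849 for Ctgf, Cyr61, Ankrd1 and Lats2. The proportion of Ctgf to Cyr61 overlapped between the lines, with a TPM ratio of 3.32 and 2.91 in MK1 and 2.92 and 3.41 in MK2. Among 15 tested genes of a list of other YAP and TEAD targets, 8 were higher in MK2 replicate 2 than in replicate 1. This was 53.3% against 49.4% of all genes tested, a count that leaves size aside. The median log2 difference of the 15 was 0.05. Axl, the most abundant of the list, was lower in MK2 replicate 1, like Ctgf. Its log2 change from MK1 was -0.52 without MK2 replicate 2 and 0.016 without MK2 replicate 1. In MK1, 4 of the 15 were higher in replicate 2, 26.7% against 49.9%.

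In both lines Ctgf was the most abundant of the 10 genes per length, with 547 ± 23.9 TPM in MK1 and 423 ± 144 TPM in MK2. Cyr61 came next (176 ± 8.71 and 132 ± 31.2 TPM), and then Yap1 (93.7 ± 8.87 and 97.9 ± 15.8 TPM). Ankrd1 was the lowest in both (2.52 ± 0.171 and 0.342 ± 0.356 TPM). In MK1 the neighbours Tead3 and Tead4 overlapped between cultures, as did Wwtr1 and Lats2. In MK2 the neighbours Tead3, Tead2 and Tead1 overlapped in turn, and Wwtr1 was below Lats2 (12.8 ± 0.878 against 18.5 ± 1.48 TPM).

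The chromosomal surroundings of the genes were measured as the median log2 change of the nearest tested genes, 25 on each side. Around Tead2 and Tead4 that median was -0.20 and -0.08, around Wwtr1 0.14 and around Ankrd1 0.08, each far from, or opposite in sign to, the gene's own log2 change. Around Ctgf it was -0.40 and around Lats2 -0.20, in the direction of the genes' own values. The Yap1 neighbourhood, with 35 genes near a chromosome end, had a median of 0.16, close to the log2 change of Yap1 itself.

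**Figure D3:**
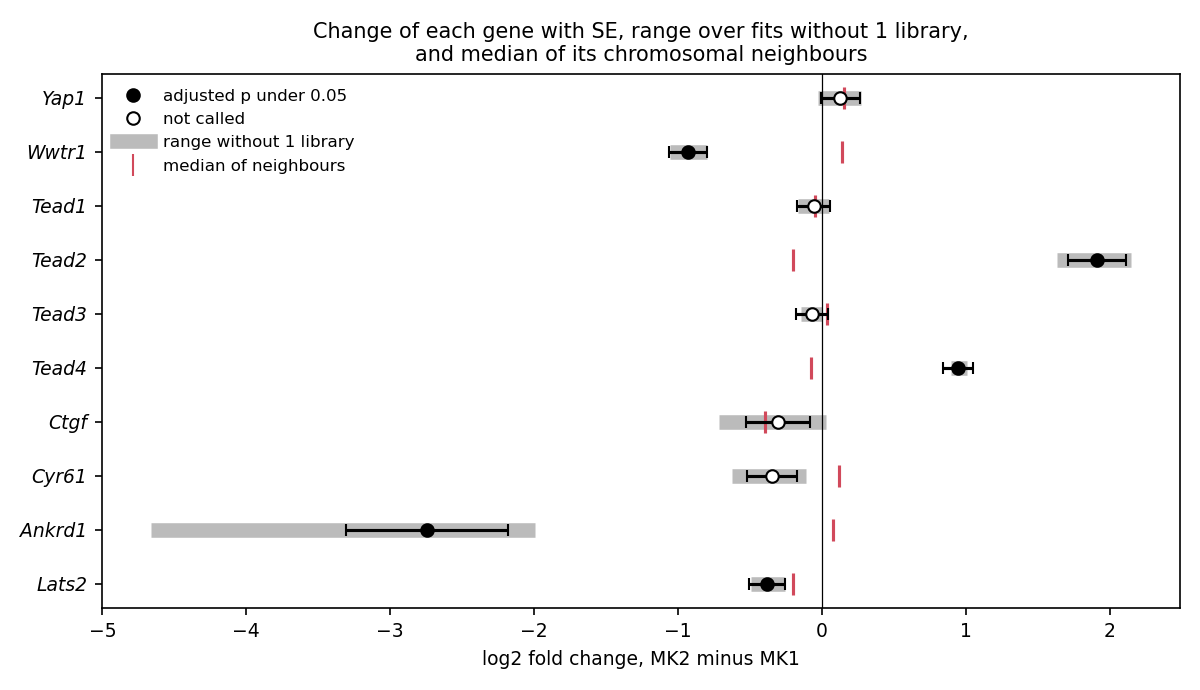
Log2 fold change of each gene (MK2 minus MK1) with its SE, filled where the adjusted p was under 0.05. Grey bars give the range over 4 fits that each left out 1 library, and red ticks the median of neighbouring tested genes. The bars of Tead2, Tead4 and Wwtr1 lie far from 0, and that of Ankrd1 is the longest, from -4.66 to -1.99.

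Genes most like Yap1 and Ctgf in their pattern over the 4 libraries were sought among 8642 tested genes at a mean of 10 CPM or more. The measure was the largest difference in log2 CPM after each gene was centred on its mean. Closest to Yap1 were Per1, a circadian clock gene (0.00992), Pi4ka, a phosphatidylinositol kinase (0.0157), and Hook3, a microtubule adaptor (0.0231). Closest to Ctgf were Msn, which encodes the cortical actin linker moesin (0.0491), the laminin chain Lamb1 (0.0576) and Mid1ip1, a regulator of lipid synthesis (0.0590). Msn stood at 1507 and 1502 CPM in MK1 and at 897 and 1457 CPM in MK2, low in the same MK2 culture as Ctgf. That likeness follows from the search, which picked genes by these same 4 libraries, and is a description only.

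Upstream, 3 of 14 tested genes of the kinase core and its adaptors rose and 3 fell, beside 25.9% higher and 28.6% lower among all genes tested, and their median log2 change was -0.05. The counts were 1 and 1 without MK1 replicate 1, and 1 gene rose without MK1 replicate 2. Stk4, which encodes the kinase MST1 at the head of the cascade, stood at 69.8 and 72.9 CPM in MK1 and at 193 and 200.4 CPM in MK2. It rose by 1.46 on the log2 scale (SE 0.10, edgeR adjusted p = 9.74e-05), and also passed beyond 2-fold (glmTreat adjusted p = 0.00370). Taok2, a kinase that activates MST kinases, fell by 0.96 (SE 0.10, edgeR adjusted p = 4.50e-04). Mob1a, the LATS cofactor and most abundant of the list by TPM, averaged 108 ± 6.45 CPM in MK1 against 97.3 ± 8.56 CPM in MK2, and was not called (edgeR adjusted p = 0.302).

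Of 15 tested partners that bind YAP or TAZ, 3 rose and 3 fell (median 0.01), beside 25.9% and 28.6% of all genes. Without MK1 replicate 1 or MK1 replicate 2 only 1 was called higher, and without MK2 replicate 2, 6 were called lower. Amot, an angiomotin that holds YAP at junctions and in the cytoplasm, stood at 107 and 63.6 CPM in MK1 and at 2.19 and 3.42 CPM in MK2. It fell by 4.91 on the log2 scale (SE 0.33, edgeR adjusted p = 7.88e-05), with MK1 cultures that differed from each other but stayed far above MK2. Its paralogue Amotl1 went from 772 and 686 CPM to 385 and 441 CPM (log2 change -0.82, SE 0.12, edgeR adjusted p = 0.00171). Ywhab, a phosphoprotein-binding adaptor that retains YAP in the cytoplasm, rose by 0.77 (SE 0.10, edgeR adjusted p = 0.00103).

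Of 13 tested polarity and adhesion genes that feed into the pathway, 3 rose and 2 fell (median 0.13), beside 25.9% and 28.6% of all genes. Without MK1 replicate 2 the count called higher was 0, and the count called lower was 1 without MK1 replicate 1, MK1 replicate 2 or MK2 replicate 1 and with the replicate block. Crb3, the epithelial Crumbs protein of apical junctions, went from 34.8 and 30.8 CPM to 8.34 and 11.3 CPM (log2 change -1.74, SE 0.18, edgeR adjusted p = 4.22e-04), and was called beyond 2-fold. Of 14 tested members of the STRIPAK phosphatase complex, which counters MST kinases, 3 rose and 3 fell (median -0.08), beside the same 25.9% and 28.6%. Both counts were 0 without MK1 replicate 1 and 1 without MK1 replicate 2. None was called beyond 2-fold by glmTreat.

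Vestigial-like proteins compete with YAP and TAZ for TEAD factors or serve as TEAD cofactors of their own. Of the 4 genes 3 were tested, and 2 of these were called lower, Vgll4 and Vgll1, beside 28.6% of all genes. Vgll4, a repressor of TEAD activity, stood at 32.0 and 29.0 CPM in MK1 and at 17.7 and 16.5 CPM in MK2 (log2 change -0.83, SE 0.13, edgeR adjusted p = 0.00208). Vgll3, the most abundant by TPM, averaged 129 ± 3.88 CPM in MK1 against 123 ± 0.903 CPM in MK2, without a call (edgeR adjusted p = 0.592). Vgll1, named after its values were seen, had 21 and 31 counts in MK1 and 0 and 1 counts in MK2. It entered the test through MK1 alone, and with a filter of at least 1 CPM in 2 libraries it was not tested, which left 1 call.

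Of 15 tested genes in the list of other YAP and TEAD targets, 4 rose and 4 fell, close to the 25.9% and 28.6% of all genes, with a median of -0.24, and 3 further genes of the list were too low to test. Without MK1 replicate 1, 2 were higher and 1 lower, and without MK2 replicate 2, 7 were lower. Igfbp3, a secreted binding protein of insulin-like growth factors, went from 39.4 and 34.5 CPM to 158 and 221 CPM (log2 change 2.36, SE 0.18, edgeR adjusted p = 1.40e-04), beyond 2-fold. Dock5, a Rac exchange factor, rose by 1.07 (SE 0.11, edgeR adjusted p = 3.70e-04). F3, the tissue factor of blood coagulation, fell by 1.05 (SE 0.10, edgeR adjusted p = 3.06e-04). Axl, a receptor tyrosine kinase and the most abundant of the list, stood at 1433 and 1357 CPM in MK1 and at 970 and 1405 CPM in MK2. It was not called (edgeR adjusted p = 0.299), but was without MK2 replicate 2 (log2 change -0.52, adjusted p = 0.00458).

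Close relatives of the targets were scarce. Of 4 other CCN genes only Wisp1 could be tested. Its level was 0.713 ± 0.481 CPM in MK1 against 1.51 ± 0.0578 CPM in MK2, without a call (log2 change 1.06, edgeR adjusted p = 0.0863). The log2 change was 2.00 without MK1 replicate 1 and 0.52 without MK1 replicate 2. Wisp1 was called with no filter (edgeR adjusted p = 0.0464) and with replicate numbers crossed between the lines as a block (edgeR adjusted p = 0.0185). Nov had 0 counts in all 4 libraries. Ankrd23, a relative of Ankrd1, averaged 2.40 ± 0.234 CPM in MK1 against 2.61 ± 0.0974 CPM in MK2, without a call (edgeR adjusted p = 0.676). Over all lists, 77 of 89 genes were tested, 16 rose and 18 fell, together 44.2% against the 54.6% of all genes. Without MK1 replicate 1, 7 rose and 7 fell, and without MK1 replicate 2, 7 rose and 12 fell.

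**Figure D4:**
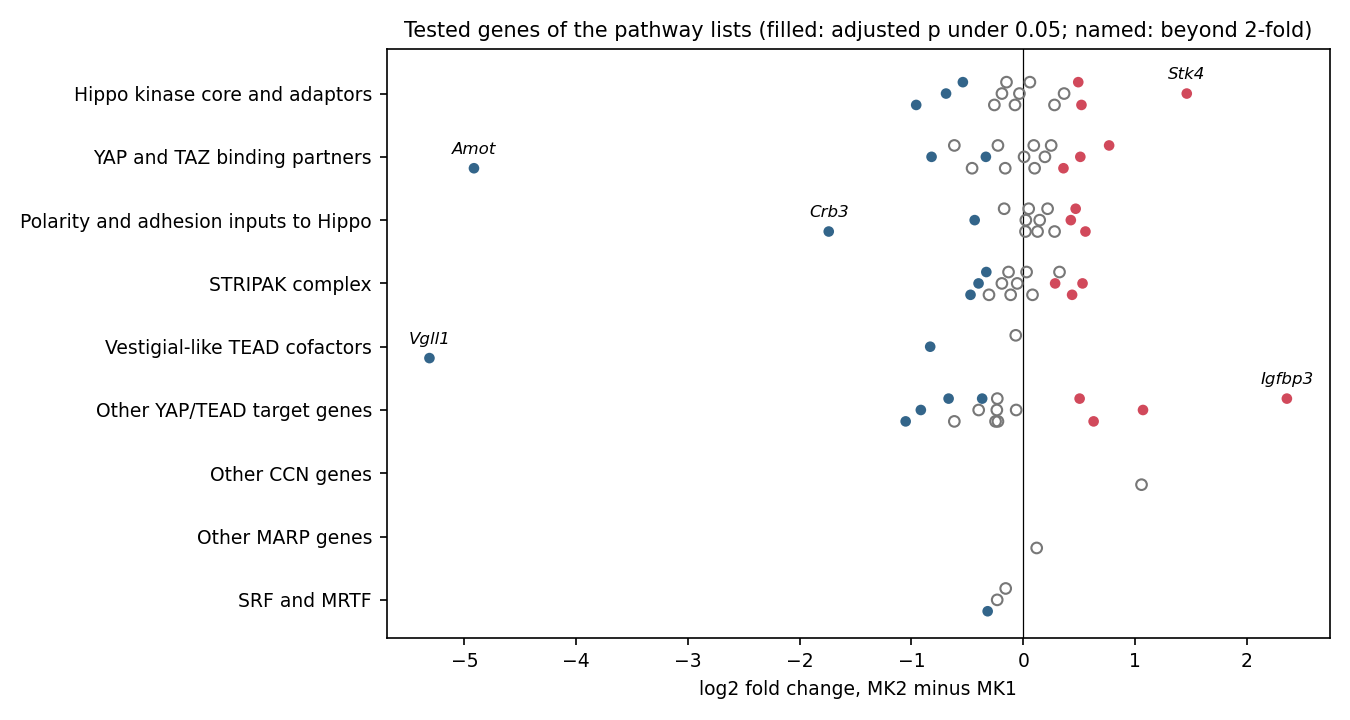
Log2 fold change (MK2 minus MK1) of every tested gene of 9 pathway lists, filled where the adjusted p was under 0.05 and named where the change passed the test beyond 2-fold. Calls lie on both sides of 0 in 5 of the lists, and Amot and Vgll1 lie farthest to the left, Igfbp3 farthest to the right.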

How the data were processed

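The deposited table holds raw read counts per gene for 4 libraries, as the authors' counting left them, without normalisation. The file headers give the step: featureCounts 1.4.6-p4 summed reads over exons by gene name of the UCSC mm10 annotation, with no option set for strand, read pairs or multiple alignments; the submitters' processing notes name featureCounts 1.5.0, TopHat2 2.0.13, Bowtie2 2.2.6 and DESeq2 1.10.1. The command in the header names the lines MK and MKU, while the count columns and the labels, followed here, name them MK1 and MK2. Read length is not given in the sources used here. No exon of the 10 genes overlapped an exon of another row. Gene lengths and positions are as deposited.

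Counts were tested with edgeR 4.0.16 (R 4.3.3): filterByExpr with a minimum count of 10, TMM scaling, the quasi-likelihood test and glmTreat at a log2 change of 1, with Benjamini-Hochberg adjustment over all genes tested. SE were derived from the log2 change and its F statistic. Total counts per library were 30261111 and 26693849 (MK1) and 25237391 and 28601806 (MK2). Replicates differed beyond counting noise (median chi-square per gene 2.88 in MK1 and 4.28 in MK2). The procedure was tested on simulated data. Alternatives were 3 other scalings, 2 filters, DESeq2 1.42.0, each library left out, and the replicate number as a block. A block with the replicate numbers crossed between the lines, chosen after seeing the data, brought them to 12.

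The genes and lists were chosen with earlier results of these data known. From each of 9 pathway lists, the text could name up to 4 called genes with the smallest adjusted p among those reaching 1 CPM in a line, and the most abundant gene by TPM; of these, the ones that help describe the pathway were named. Of 126 listed symbols, 0 were missing from the table and 1 was found by a synonym. No count column was without a sample (0 columns).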

Additional observations from a re-analysis of the deposited data

How the results depend on the processing

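In 12 alternatives for each of the 10 genes, 108 of 120 values kept their direction and their side of the threshold, among them all 12 for Tead2, Tead4 and Wwtr1. Of the 5 genes that were not called, all but Cyr61 changed sign when 1 library was left out: log2 changes ran from -0.026 (without MK2 replicate 1) to 0.27 for Yap1, from -0.17 to 0.050 (without MK2 replicate 2) for Tead1, from -0.14 to 0.0036 (without MK1 replicate 1) for Tead3 and from -0.72 to 0.026 (without MK2 replicate 1) for Ctgf. With 1 library left out, a line's lone library is assumed to vary like the other line. The count of the 10 genes called lower then ran from 1 (without MK1 replicate 1) to 4, and the count called higher was 2 throughout. The counts called beyond 2-fold ran from 0 to 1 in each direction. Of all genes, 3716 to 6847 were called, 1527 to 3222 higher and 2189 to 3625 lower, and 985 to 1717 were called beyond 2-fold, each lowest value being that without MK1 replicate 1. Pathway genes called ran from 7 to 16 higher and from 7 to 21 lower. In DESeq2, 0 of the 10 genes were lower beyond 2-fold and 1106 of all genes were called beyond 2-fold. The cause of these shifts was not tested. Of 216 counts for single pathway lists, 182 were within 1.5 times the reported count. These include counts of 0 that stayed at 0, some from lists with few tested genes.

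The labels give the lines the same replicate numbers but do not say that a number marks a shared batch. Deviations of same-numbered cultures correlated at -0.15 across tested genes, which are not independent. With the replicate block 2 of the 10 genes were higher, 3 lower and 0 lower beyond 2-fold (Ankrd1, adjusted p = 0.0769). With the crossed pairing, chosen after seeing the data, 2 were higher and 5 lower. Subtracting the median of neighbouring genes, also added after seeing the data, left Wwtr1 at -1.07 and Lats2 at -0.18 and turned Ctgf to 0.094 and Yap1 to -0.029. Subtracting the chromosome's median left Lats2 at -0.14 and Yap1 at 0.36 and turned Ctgf to 0.027 and Tead1 to 0.057. Depth limits Ankrd1, with 2 counts in MK2 replicate 1.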
